A study of Mus musculus with 48 samples.

Results

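The elements described here are the 1086 of the NSC class whose names carry the label desc, read as descending, in a library of 11709 elements tested by massively parallel reporter assay in the embryonic mouse cortex. They were chosen by class and name alone, with no use of their measured activity. The class holds 3125 elements in all, of which 1134 carry the label asc (ascending) and 905 the label unc, and the library also holds 996 elements of the class Scrambled, the controls. The labels do not say what ascends or descends, nor how it was decided. The names of these elements hold a running number and no genome position, and no sequence of theirs was used here. An element is called by the last piece of its name, so that NSC_551 stands for the descending element with that number.

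In such an assay each DNA element is placed beside a reporter gene in a plasmid, and the RNA made from the reporter is set against the plasmid DNA in the same cells. The measurement shows how much transcription an element drives outside its place in the genome. Neural stem cells (NSC) of the cortex line the ventricle and divide to renew themselves, to make neurons directly, or to make intermediate progenitors (IPC), whose own divisions yield most of the neurons. As neurogenesis proceeds the stem cells pass from deep-layer to upper-layer neurons and later towards glia, and many enhancers open or close over this course.

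Embryos of the strain C57BL/6JRj (Haplotype H2b) received the plasmids by electroporation in utero at E12, E13, E14, E15 or E16, and their somatosensory cortex was collected 24 h later, so the groups are named by collection age, E13 to E17. Cells were fixed, stained and sorted into Pax6+ NSC and Tbr2+ IPC (Tbr2 is the protein of Eomes). All groups thus share the strain, the plasmid library and the fixation, and no untreated or plasmid-free group was used here. Each of 24 biological samples gave 1 DNA library and 1 RNA library, 48 in all. For both cell types there were 3 samples collected at E14 and 3 at E15, while E13, E16 and E17 had 2 each. The electroporated cells are those that took up the plasmid, and cells collected 24 h later can include daughters of the cells first reached.

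The deposited table gave every element 1 activity value per combination (10 in all), so no spread between biological samples and no sequencing depth can be stated for any element. Values were divided by the median of the Scrambled elements of the same column; a ratio of 1 is the middle of the controls. The Scrambled median itself ran from 0.164 in NSC at E13 to 2.37 in NSC at E17, on the deposited scale. The controls were most dispersed in NSC at E13, where their scaled median absolute deviation was 1.05 times their median, and least in NSC at E17, at 0.432 times. High ratios at E13 in NSC are therefore set against the noisiest controls. All 10 values were present for 977 descending elements (89.96%), against 94.5% of ascending, 93.0% of unc and 95.9% of Scrambled elements. In a single column between 1033 and 1076 descending elements had a value, and 1 had none.

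In NSC the descending elements stood above the controls from E14 on, by a modest margin, and in IPC they stood at the level of the controls. Their median ratio in NSC was 1.01 at E13, then 1.25 and 1.23 at E14 and E15, and 1.16 and 1.15 at the last 2 ages. E13 sat at the Scrambled median and the highest median was that of E14, with the later ages between them. In IPC the medians were 0.980, 0.985, 1.04, 1.05 and 1.06 at the same ages, all close to 1. Averaged over the 5 ages, the median ratio was 1.16 ± 0.0935 (SD over 5 ages) in NSC and 1.02 ± 0.0394 in IPC. Among all 11709 elements the same averages were 1.09 in NSC and 1.08 in IPC. In every NSC column the elements above the control median were at most 61.9% of those measured (E15), and at least 50.5% (E13). Many descending elements thus lay below that median at each age.

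In NSC the other labels of the class lay close to the descending elements up to E15 and above them at E16 and E17. The ascending elements had NSC medians of 0.994, 1.17, 1.27, 1.28 and 1.40, so their highest value was at E17. The unc elements had NSC medians of 1.04, 1.26, 1.27, 1.28 and 1.36. At E14 the descending median of 1.25 lay above the ascending one of 1.17, and at E17 it lay below both other labels. In IPC the 3 labels ran between 0.980 and 1.20, with descending elements lowest at E17 (1.06, against 1.15 for ascending and 1.20 for unc). At E16 in IPC the descending median was the highest of the 3 (1.05, against 1.00 for ascending and 1.03 for unc). These differences between labels were not tested, since no replicate of any column is at hand.

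**Figure D1:**
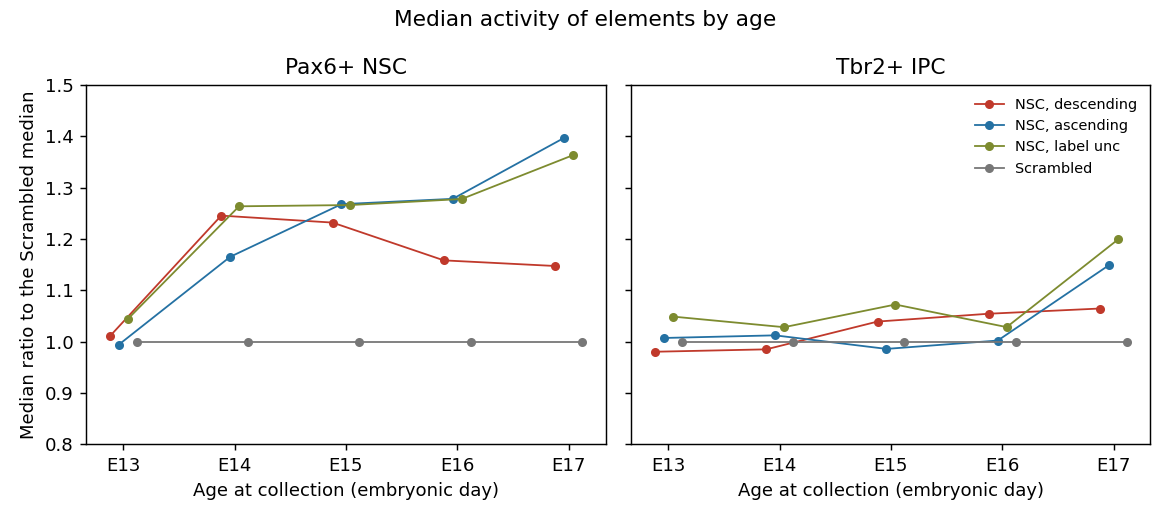
Median ratio to the Scrambled median (y axis, linear, starting at 0.8) by age at collection (x axis, embryonic day) for descending, ascending, unc and Scrambled elements, in NSC (left) and IPC (right); Scrambled is 1 by construction and points are shifted sideways to be seen. In NSC the descending elements go from 1.25 at E14 to 1.15 at E17 while the ascending ones go from 1.17 to 1.40.

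Element by element, the widest step of the descending elements in NSC was the one from E13 to E14. Among the 1019 descending elements with all 5 NSC values, the median step on the log2(ratio + 0.1) scale was 0.41 from E13 to E14, against 0.23 among ascending, 0.24 among unc and 0.04 among Scrambled elements and 0.19 over all elements. The step was positive for all 3 labels. The next steps had medians of 0.00 (E14 to E15), -0.08 (E15 to E16) and -0.02 (E16 to E17). For ascending elements the same 3 steps had medians of 0.05, 0.04 and 0.11. From E14 to E17 directly, 52.4% of descending elements were lower at the later age (95% Wilson interval 49.3 to 55.5%), with a median difference of -0.07. The share among ascending elements was 38.8% (36.0 to 41.8%), among unc elements 45.7% and among Scrambled elements 49.6%. Over all elements it was 48.2% (47.2 to 49.1%), with a median difference of 0.04. In this measure the descending share thus stood near that of the controls and above that of the library. The ascending share stood below all of these. These intervals, like all those on shares of elements given here, cover the sampling of elements only. They leave out the spread between embryos and treat elements as independent, which overlapping or related sequences would not be.

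The authors deposited an adjusted p per element and column, made from the element's distance to the Scrambled elements of that column. Here an element counts as called in a column where that p is under 0.05. In NSC this held for 179 descending elements at E13 (16.9%), and from E14 to E17 for 209 (19.4%), 156 (14.8%), 238 (22.7%) and 141 (13.1%). Over all elements of the library the same columns gave 15.1%, 14.2%, 12.1%, 18.9% and 12.4%. Scrambled elements were themselves called in 13.3%, 9.77%, 8.11%, 12.9% and 6.16% of cases, which is the background of the call. The descending share exceeded the Scrambled share by the widest margin at E16 and E14, and by the narrowest at E13. In IPC 190 (18.1%), 95 (8.88%), 140 (13.4%), 144 (13.9%) and 173 (16.4%) descending elements were called. Among all elements the IPC shares were 19.3%, 10.9%, 14.6%, 15.8% and 18.0%. In all 5 IPC columns the descending share was below that of the library as a whole, and above that of Scrambled elements (15.7%, 6.66%, 11.1%, 12.4% and 10.3%).

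The shares called in NSC differed between descending and ascending elements at E14 and E17. At E14 in NSC 19.4% of descending elements were called (17.2 to 21.9%), against 13.9% of ascending elements (12.02 to 16.1%). Unc elements stood at 22.8% (20.2 to 25.7%), an interval that overlapped the descending one. At E17 13.1% of descending elements were called (11.3 to 15.3%), against 22.8% of ascending elements (20.4 to 25.3%). Among unc elements the E17 share was 22.0% (19.5 to 24.9%). Over all elements the NSC shares were 14.2% at E14 and 12.4% at E17. The descending share was thus above the library's at E14 and near it at E17, where both other labels stood above the library. The intervals of descending and ascending elements overlapped at E13, E15 and E16 and did not at E14 and E17. Both ages rest on pooled values of 3 and 2 biological samples per column, and the difference between labels was not tested across samples.

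**Figure D2:**
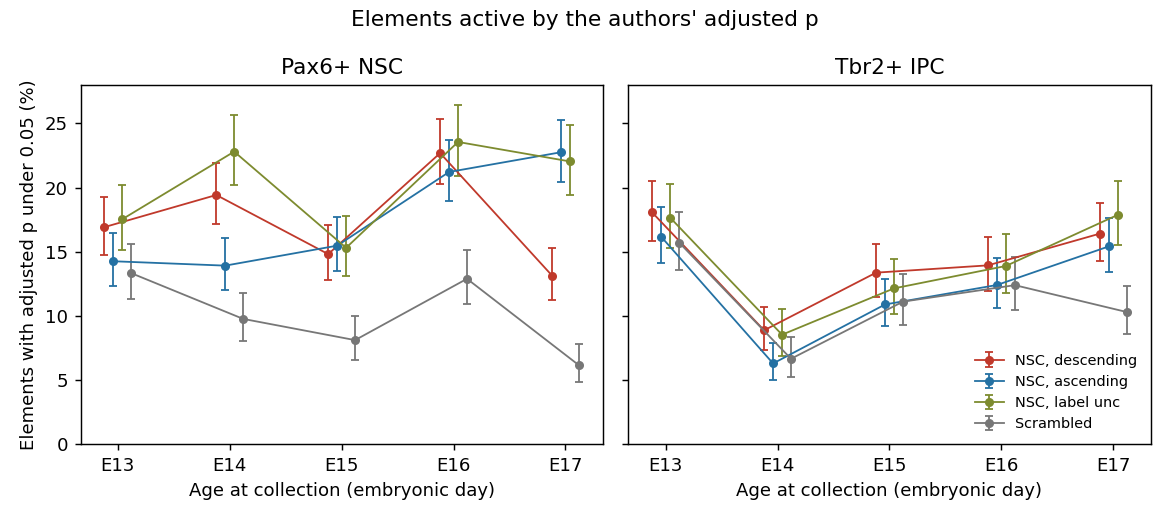
Share of elements with an adjusted p under 0.05 in the authors' deposited table (y axis, %) by age at collection (x axis) for the same 4 sets, in NSC (left) and IPC (right); bars are 95% Wilson intervals over elements. In NSC at E17 the descending share is 13.1%, below the 22.8% of ascending and 22.0% of unc elements and above the 6.16% of Scrambled elements. The share over all elements in that column, not drawn, is 12.4%.

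Few descending elements were called at several ages. Of the 1019 with all 5 NSC values, 441 were called at no age in NSC, 361 at 1 age, 150 at 2, 52 at 3, 14 at 4 and 1 at all 5. At least 3 NSC ages were reached by 67 elements, which is 6.58% (5.21 to 8.27%) against 4.53% of all elements. The share was 6.40% among ascending, 9.46% among unc and 1.34% among Scrambled elements. In IPC 29 of 996 descending elements reached at least 3 ages (2.91%), against 4.84% of all elements and 1.25% of Scrambled ones. Of the 977 descending elements with all 10 values, 5 did so in both cell types (0.512%, against 0.544% of all elements). Another 27 were called at 3 or more NSC ages and at no IPC age (2.76%, against 1.42% of all elements), beside 2.43% of ascending, 2.61% of unc and 0.733% of Scrambled elements. Called in no column were 241 (24.7%, against 27.5% of all elements and 37.0% of Scrambled), and in at least 5 columns 32 (3.28%, against 3.25% of all elements). The shares called in both cell types and in 5 or more columns thus lay at those of the library.

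Neighbouring ages shared a minority of their calls. Between E13 and E14 in NSC, 52 elements were called at both, which is 29.2% of those called at E13 and 25.4% of those called at E14, when 19.4% of the elements compared were called at E14 and 16.9% at E13. Between E16 and E17 in NSC the 42 shared elements were 17.9% of the E16 calls and 30.4% of the E17 calls, when 13.2% were called at E17 and 22.4% at E16. In IPC the 24 elements shared by E13 and E14 were 12.7% and 27.3% of the calls, beside 8.43% called at E14 and 18.1% at E13. The 25 shared by E16 and E17 in IPC were 18.0% and 15.4%, beside 15.9% called at E17 and 13.7% at E16. The shared shares lay above these base rates in all 4 pairs. They did so too in the other neighbouring pairs, but barely for E15 and E16 in NSC. There the 36 shared elements were 23.5% of the E15 calls and 15.5% of the E16 calls, beside 22.6% called at E16 and 14.8% at E15. In rank terms, Spearman's rho across descending elements between 2 NSC columns had a median of 0.11 and ran from 0.04 to 0.12 over the 10 pairs. The mean of E13, E15 and E17 correlated with the mean of E14 and E16 at rho 0.16 in NSC (1019 elements) and 0.11 in IPC (996 elements), against 0.07 and 0.09 among Scrambled elements and 0.25 in NSC among unc elements. NSC and IPC means correlated at rho 0.19 over 977 descending elements, against 0.08 among Scrambled ones. Among ascending elements this rho was 0.20, among unc elements 0.29 and over all elements 0.20. The mean of E13, E15 and E17 against that of E14 and E16 gave 0.15 over all elements in both cell types. The descending values thus lay near those of the library or below them. All these points share one plasmid library and its barcodes, and the correlations are descriptions over elements. The rank of a descending element in one column thus said little of its rank in another.

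Averaging over the 5 ages separated a small upper group from the controls. The limits used were those that leave 2.5% of Scrambled elements outside on either side of their own mean log2(ratio + 0.1), with an NSC range of -0.75 to 1.26 and an IPC range of -0.77 to 1.20. In NSC 86 of 1019 descending elements (8.44%, 6.89 to 10.3%) lay above the upper limit, against 5.75% of all elements, 6.40% of ascending and 13.5% of unc elements. Below the lower NSC limit lay 20 (1.96%), against 2.18% of all elements. There were 31 both without E14 and without E16, where the share of all elements was not computed. In IPC 61 of 996 (6.12%) lay above the limit, against 8.08% of all elements, and 31 (3.11%) lay below, against 2.10%. The descending elements were thus over the library's share on the high side in NSC and under it in IPC. The NSC count depended on the scale: with the authors' MAD score, a linear distance to the controls in units of their spread, 45 descending elements (4.42%) were above the limit in NSC, against 3.41% of all elements, 2.19% of ascending and 5.54% of unc elements. In IPC that score put 41 (4.12%) above, against 5.63% of all elements.

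**Figure D3:**
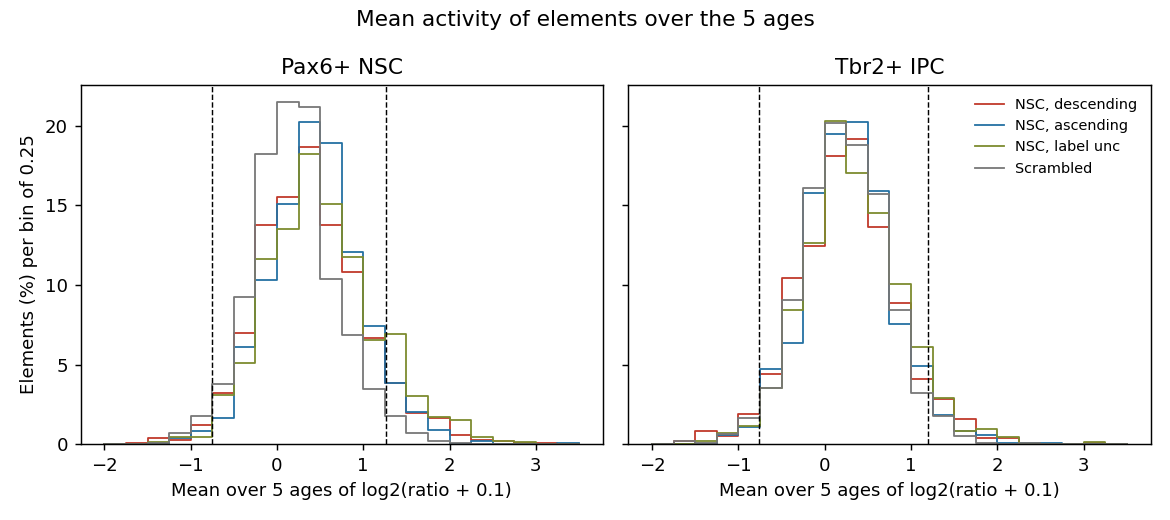
Distribution of the mean over 5 ages of log2(ratio + 0.1) (x axis, bins of 0.25) as a share of elements (y axis, %) for descending, ascending, unc and Scrambled elements, in NSC (left) and IPC (right); dashed lines are the limits that leave 2.5% of Scrambled elements on each side. In NSC 8.44% of descending elements lie right of the upper limit at 1.26 and 1.96% left of the lower limit at -0.75.

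The descending elements also spread more widely than the controls. The SD of log2(ratio + 0.1) across elements, averaged over the 5 columns, was 1.23 in NSC and 1.22 in IPC for descending elements, 1.10 and 1.08 for ascending, 1.20 and 1.12 for unc, and 1.03 and 1.04 for Scrambled elements. Over all elements these averages were 1.14 and 1.20. Restricted to elements with all 10 values, the descending figures were 1.15 and 1.14 and the ascending ones 1.04 and 1.04. The unc figures were then 1.13 and 1.06, the Scrambled ones 0.995 and 1.01, and those of all elements 1.08 and 1.13. In IPC the descending spread was thus close to that of the library. The descending label, which had the most missing values, thus also had the widest spread of the 3 labels in both cell types. The depth of single elements is unknown, and its part in the spread was not tested.

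Ratios above 10 were the far end of this spread. In NSC 49 descending elements exceeded 10 at E13 (4.63%, against 4.34% of all elements), and 14, 12, 35 and 1 did so from E14 to E17. These later counts were 1.30%, 1.14%, 3.34% and 0.0932%, against 0.990%, 0.819%, 1.98% and 0.112% of all elements. At the ages with the most such values, E13 and E16, the NSC controls had a scaled deviation of 1.05 and 0.633 times their median. At E14, E15 and E17, with 14, 12 and 1 such values, it was 0.526, 0.622 and 0.432 times. The part of the control spread in the counts was not tested. Of the 1019 elements with all 5 NSC values, 94 exceeded 10 at 1 or more ages (9.22%, against 7.36% of all elements and 6.37% of Scrambled), and 6 of these did so at 2 ages and none at 3. In IPC 77 of 996 did so (7.73%, against 9.05% of all elements). Above 50 in NSC at E13 were 11 elements, led by NSC_44 at 215 and NSC_22 at 201, and only NSC_786 and NSC_1553 of the 11 passed 10 at another NSC age.

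NSC_551 had the highest NSC mean of all descending elements and was the 1 element called at all 5 NSC ages. Its NSC ratios were 7.67, 9.04, 8.03, 11.2 and 5.91 from E13 to E17. Its IPC ratios were 1.15, 2.33, 11.0, 3.94 and 1.82 over the same ages. All 5 NSC values thus lay between 5.91 and 11.2, and the NSC value was the higher one at every age but E15. The IPC minus NSC difference was -1.45 on the log2(ratio + 0.1) scale (SE 0.54; limma adjusted p = 0.68 over all elements). Its slope with age in NSC was -0.04 per day (SE 0.23).

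Several other leading elements had 1 NSC value far above their others, though NSC_1553 and NSC_228 were high at 3 NSC ages. NSC_786 stood second with NSC ratios of 159, 12.2, 1.14, 2.61 and 2.57, and IPC ratios of 2.61, 2.39, 0.472, 2.44 and 0.379. NSC_1553 had NSC ratios of 91.7, 18.1, 7.95, 0.498 and 1.22, and IPC ratios of 1.96, 0.133, 9.46, 0.0676 and 0.346. NSC_228 had NSC ratios of 9.74, 9.07, 131, 0.302 and 1.18, and IPC ratios of 7.02, 1.29, 11.1, 0.119 and 0.184. In both NSC_1553 and NSC_228 the first 3 ages were high and E16 was below the control median. NSC_978 (NSC ratio 185 at E13, 1.484 to 2.86 later), NSC_581 (136 at E13, 0.396 to 5.78 later) and NSC_44 (215 at E13, 0.492 to 6.20 later) owed their place to E13. Without E13, 4 of the 10 leading elements stayed among the 10 highest, and with the median over ages in place of the mean also 4.

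The other elements among the 10 highest NSC means, NSC_696, NSC_1611 and NSC_883, also had high values at more than 1 age each. NSC_696 had NSC ratios of 4.25, 11.2, 1.01, 14.3 and 4.38, and IPC ratios of 1.42, 1.57, 33.0, 1.27 and 0.650. NSC_1611 had NSC ratios of 3.59, 6.62, 1.84, 13.5 and 4.01, and IPC ratios of 4.01, 0.937, 2.31, 0.906 and 3.59. NSC_883 had NSC ratios of 22.8, 2.498, 1.33, 14.2 and 1.45, and IPC ratios of 0.816, 2.03, 1.10, 3.10 and 1.68. Each had all 5 NSC values above the control median. NSC_696 and NSC_1611 were called at 4 NSC ages and NSC_883 at 3. When ranked by the median over ages, the highest were NSC_228 (9.07), NSC_551 (8.03), NSC_1553 (7.95), NSC_66 (7.91) and NSC_1361 (4.59). NSC_66 had NSC ratios of 12.1, 7.91, 0.372, 8.01 and 2.98, and NSC_1361 had 9.11, 4.71, 1.61, 4.59 and 3.72 with IPC ratios of 0.932 to 1.82. Both lay outside the rule by which elements are named and were chosen after their values were seen; NSC_1361 was called at 4 NSC ages and no IPC age.

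**Figure D4:**
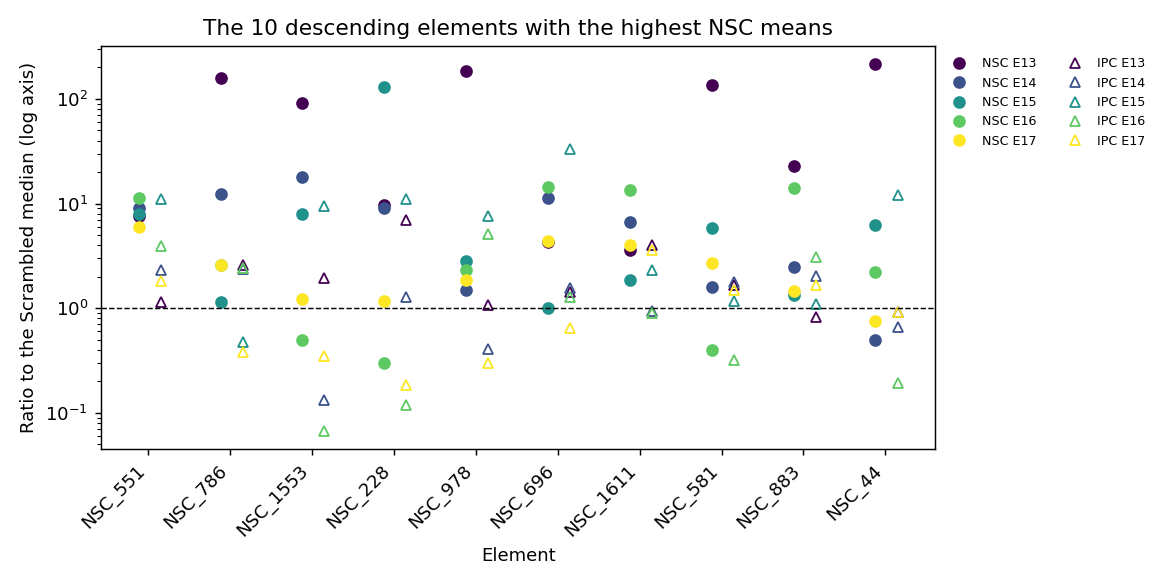
Ratio to the Scrambled median (y axis, log axis; dashed line at 1) for the 10 descending elements with the highest NSC means (x axis), filled circles for NSC and open triangles for IPC, coloured by age; each point is 1 pooled value. NSC_551 holds its 5 NSC values between 5.91 and 11.2, while NSC_786, NSC_1553, NSC_978, NSC_581 and NSC_44 each have an E13 value above 90 and lower values later.

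The highest IPC mean belonged to NSC_1686, the 1 descending element called at all 5 IPC ages. Its IPC ratios were 8.96, 4.99, 33.7, 8.77 and 4.06, all above 4. Its NSC ratios were 2.62, 0.903, 10.8, 0.239 and 5.82, on both sides of the controls. It was higher in IPC at 4 of 5 ages; the difference was 1.98 (SE 0.69; limma adjusted p = 0.68). The next IPC means were more uneven. NSC_894 had IPC ratios of 9.36, 0.819, 1.20, 143 and 3.01, NSC_673 had 36.7, 4.95, 1.04, 2.52 and 3.11, NSC_383 had 1.60, 9.62, 7.20, 2.86 and 4.60, and NSC_82 had 33.0, 3.14, 1.17, 2.56 and 3.81. All but NSC_894 were above 1 at all 5 IPC ages, and NSC_383, whose NSC ratios were 2.15, 5.03, 1.07, 33.9 and 1.11, was above 1 in all 10 columns.

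The lowest means over all 10 columns were those of NSC_1747, NSC_227, NSC_706, NSC_1048 and NSC_530. NSC_1747 was below the control median in all 5 NSC columns (0.0733, 0.512, 0.379, 0.544 and 0.583) and in 4 of 5 IPC columns (0.0726, 3.33, 0.0351, 0.113 and 0.230). NSC_227 had NSC ratios of 0.286, 2.48, 0.913, 0.220 and 0.472 and IPC ratios of 0.0350 to 0.520. NSC_706 had NSC ratios of 0.103, 5.87, 0.439, 0.298 and 0.436 and IPC ratios of 0.106 to 0.530. NSC_530 had IPC ratios of 0.143 to 0.531, with NSC ratios between 0.243 and 2.41. These 3 were below the control median in every IPC column and above it at 1 or 2 NSC ages. NSC_1048 was at a ratio of 0.00366 in NSC and 3.51e-06 in IPC at E15 and up to 2.55 elsewhere, so its place rests on E15.

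Between the cell types, the descending elements leaned towards NSC. Over the 977 elements with all 10 values, the median IPC minus NSC difference of the mean log2(ratio + 0.1) was -0.12, against 0.04 among Scrambled elements, -0.16 among ascending, -0.19 among unc and 0.03 over all elements. By age the median was 0.19 at E13, then -0.32, -0.17, -0.25 and -0.10 from E14 to E17. The positive value at E13 was also seen in the controls, at 0.29, in the age with the widest NSC controls. From E14 on the descending elements were lower in IPC at each age, while the control medians stayed between -0.11 and 0.01. An element was higher in NSC at all 5 ages in 46 cases (4.71%, 3.55 to 6.22%), against 3.80% of all elements, 3.04% of Scrambled, 6.90% of ascending and 6.53% of unc elements. It was higher in IPC at all 5 ages in 25 cases (2.56%), against 4.38% of all elements.

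In limma, fitted over all elements with cell type beside age as a factor, no descending element passed an adjusted p under 0.05, and neither did any other element (0% of 10841; lowest adjusted p 0.68). At an unadjusted p under 0.05, 53 descending elements were higher in NSC (5.42%, 4.17 to 7.03%) against 3.17% of all elements and 2.62% of Scrambled ones. Higher in IPC were 20 (2.05%, 1.33 to 3.14%) against 3.74% of all elements and 2.30% of Scrambled. Ascending elements gave 51 higher in NSC and 17 higher in IPC, and unc elements 52 and 12, so NSC-higher elements were the more numerous under all 3 labels. The repeated observations of a cell type in this fit are the 5 ages, each a pooled value, and a p from it measures spread between ages. Without E14 the descending elements were 38 higher in NSC (3.89%, against 2.75% of all elements) and 32 higher in IPC (3.28%, against 3.62%), the least unequal of the fits that left out an age. In that fit ascending elements gave 39 and 15 and unc elements 37 and 14; whether the labels differ in this was not tested. Without E13 the IPC-higher descending elements were 11 (1.11%, against 3.11% of all elements) and without E16 13 (1.29%, against 3.54%).

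The descending elements with the widest differences towards NSC, among those higher in NSC at every age, were NSC_786, NSC_1261, NSC_989, NSC_1731 and NSC_1315. NSC_1261 had NSC ratios of 2.18, 7.47, 1.46, 0.458 and 1.01, and IPC ratios of 0.24999, 0.663, 0.103, 0.260 and 0.191. Its IPC values were all below 0.7, and the difference was -2.30 (SE 0.53; limma adjusted p = 0.68). NSC_989 had NSC ratios of 1.13, 3.77, 2.20, 1.33 and 0.9002, and IPC ratios of 0.274, 0.322, 0.123, 0.135 and 0.785. NSC_1315 had NSC ratios of 4.49, 0.884, 4.54, 8.20 and 1.90, and IPC ratios of 0.648, 0.847, 0.782, 0.617 and 0.625. For NSC_1315 the IPC values lay in a narrow band below the control median, but above the lower quartile of the controls at every age except E13. NSC_1315 was called at 3 NSC ages and at no IPC age. NSC_1731 (NSC ratios of 0.542 to 7.77, IPC ratios of 0.238 to 1.29) differed by -2.13 (SE 0.59).

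Towards IPC the widest differences, among elements higher in IPC at every age, were those of NSC_850, NSC_967, NSC_755, NSC_1767 and NSC_270, none of which was called at any NSC age. NSC_1767 had IPC ratios of 23.1, 2.83, 2.63, 2.02 and 3.36, and NSC ratios of 1.19, 1.05, 1.70, 1.14 and 0.848. It was called at 4 IPC ages, and its NSC values stayed beside the control median; the difference was 1.75 (SE 0.60; limma adjusted p = 0.68). NSC_967 had IPC ratios of 0.571, 3.32, 1.92, 7.05 and 1.86, and NSC ratios of 0.235, 0.264, 0.398, 1.69 and 0.742. NSC_850 had IPC ratios of 6.00, 1.39, 2.45, 0.242 and 40.2, and NSC ratios of 0.0756, 0.364, 0.350, 0.108 and 1.93. Its difference of 2.87 (SE 0.68; limma adjusted p = 0.68) owed most to the E17 value in IPC and the low E13 value in NSC. NSC_755 and NSC_270 differed by 1.76 (SE 0.65) and 1.56 (SE 0.61).

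Over the ages, descending elements had late NSC values below their early ones about as often as the controls did. Both late ages (E16, E17) were below both early ages (E13, E14) in NSC in 162 of 1019 descending elements (15.9%, 13.8 to 18.3%), against 14.7% of all elements. The share was 15.9% among Scrambled, 12.3% among unc and 9.69% among ascending elements (8.07 to 11.6%). Both late ages were above both early ages in 173 descending elements (16.98%), against 19.2% of all elements, 17.3% of Scrambled and 23.4% of ascending ones (21.0 to 26.0%). The descending elements thus stood with the controls in both directions, and the ascending label stood apart from them. In IPC the counts were 163 with the late ages below (16.4%, against 16.5% of all elements) and 176 with the late ages above (17.7%, against 18.8%). The highest of the 5 NSC values was at E17 in 12.95% of descending elements, 20.7% of ascending, 17.4% of unc and 13.1% of Scrambled ones, and at E14 in 18.7%, 15.3%, 15.5% and 16.1%. Over all elements these shares were 14.4% at E17 and 16.4% at E14.

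A linear slope over the 5 NSC ages, fitted in limma over all elements, passed an adjusted p under 0.05 for no element (0% of 11135; lowest adjusted p 0.69). At an unadjusted p under 0.05, 51 of 1019 descending elements had a negative slope (5.00%, 3.83 to 6.52%), against 3.48% of all elements, 3.19% of Scrambled, 3.23% of unc and 1.65% of ascending ones (1.04 to 2.59%). A positive slope at that p was found in 31 (3.04%), against 3.15% of all elements, 2.88% of Scrambled and 5.30% of ascending ones (4.12 to 6.79%). On this count descending and ascending elements thus lay on opposite sides of the library's shares for negative slopes. The median slope of descending elements was nonetheless 0.04 per day on the log2 scale, beside 0.05 over all elements, 0.03 for Scrambled and 0.11 for ascending ones. The number of slopes at this p moved with the fit, in the library as among its descending elements. With a prior variance that follows the mean activity, 37 descending elements had a negative slope (3.63%, against 3.02% of all elements) and 36 a positive one (3.53%, against 3.57%). Without E13, where the median slope of descending elements was -0.02, the counts were 24 (2.34%, against 1.64%) and 14 (1.36%, against 1.12%). In the fits without another age, negative slopes made up 6.26% (E14), 4.28% (E15), 3.28% (E16) and 6.08% (E17) of descending elements, against 5.77%, 3.03%, 2.53% and 4.76% of all elements. The descending share of negative slopes was thus above the library's in each of these fits, but not always above the Scrambled share. Without E14 6.67% of Scrambled elements had a negative slope, above the 6.26% of descending ones. In the other fits without an age the Scrambled share was lower, at 1.13% (E13), 3.38% (E15), 2.85% (E16) and 4.62% (E17). With the prior variance that follows the mean it was 3.19%, against 3.63% of descending elements. Positive slopes numbered 49 without E14 (4.79%, against 4.44% of all elements), 19 without E16 (1.83%, against 1.83%) and 62 without E17 (6.08%, against 5.60%).

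In IPC the slope was negative at an unadjusted p under 0.05 in 23 of 996 descending elements (2.31%, against 3.29% of all elements) and positive in 30 (3.01%, against 2.71%), with none past an adjusted p under 0.05 (0% of 11014). Without E13 the negative slopes were 8 (0.796%, against 0.902% of all elements) and without E17 they were 54 (5.38%, against 5.79%). The positive slopes were 12 without E14 (1.2048%, against 1.53%) and 47 without E16 (4.62%, against 4.18%). Slopes of the 2 cell types were compared in one model, where 27 descending elements had the higher slope in IPC (2.76%, against 2.86% of all elements) and 27 the higher slope in NSC (2.76%, against 3.55%) at an unadjusted p under 0.05, and none passed an adjusted p under 0.05 (0% of 10841). Without E17 these counts were 52 (5.30%, against 4.41%) and 60 (6.11%, against 6.18%), and the second was 5 without E13 (0.507%, against 0.685%) and 42 without E14 (4.30%, against 4.17%). A difference between NSC and IPC in the age course was therefore not shown for any descending element.

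**Figure D5:**
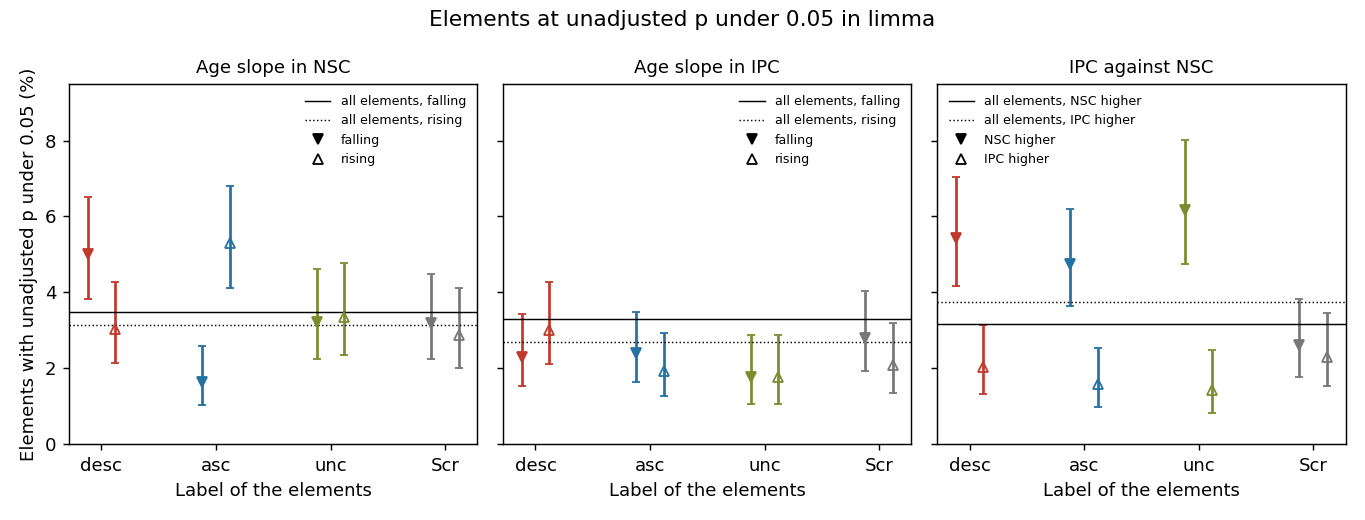
Share of elements with an unadjusted p under 0.05 in limma (y axis, %) by label (x axis; Scr is Scrambled) for the age slope in NSC, the age slope in IPC and the difference between cell types; filled triangles are negative (falling, or NSC higher), open triangles positive (rising, or IPC higher), bars are 95% Wilson intervals over elements and lines are the shares over all elements. In NSC 5.00% of descending and 1.65% of ascending elements have a negative slope, and 5.42% of descending elements are higher in NSC, against 3.17% of all elements.

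The steepest negative NSC slopes, among elements with both late ages below both early ones, again turned on E13. NSC_714 had NSC ratios of 135, 0.372, 0.425, 0.367 and 0.0453, so that 4 of its 5 values were below the control median. NSC_22 had 201, 3.16, 0.108, 1.49 and 0.654, and NSC_795 had 115, 2.22, 1.08, 2.003 and 1.43. NSC_1553, whose 10 values are given above, showed an ordered decline over the first 4 ages, with a slope of -1.72 per day (SE 0.32; limma adjusted p = 0.69). Its IPC slope was -0.49 (SE 0.57). Of these elements it alone had 3 NSC values above 5. NSC_786 had a slope of -1.40 (SE 0.43).

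The steepest positive NSC slopes, among elements with both late ages above both early ones, were smaller and came with low E13 values. That rule itself sets the late values above the early ones. NSC_276 had NSC ratios of 0.152, 0.351, 0.193, 2.80 and 4.10, and a slope of 1.08 (SE 0.29; limma adjusted p = 0.69). NSC_1491 had 0.0931, 0.395, 0.378, 1.26 and 2.74, with a slope of 0.92 (SE 0.23). Both had 3 early values below the control median and 2 late values above it. NSC_1091 had 0.111, 1.66, 3.89, 2.51 and 4.40 and was called at 3 NSC ages. NSC_968 and NSC_891 had slopes of 0.98 (SE 0.29) and 0.95 (SE 0.28). These 5 elements carry the label descending and had positive slopes, at an adjusted limma p of 0.69 for each.

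In IPC the steepest positive slope, among elements with both late ages above both early ones, was that of NSC_794. It had IPC ratios of 0.173, 0.240, 0.193, 2.59 and 45.2 and NSC ratios of 0.327 to 0.972. NSC_154 had IPC ratios of 0.381, 2.58, 3.85, 5.29 and 14.2, each above the one before, and a slope of 1.08 (SE 0.25; limma adjusted p = 0.80). NSC_274 had 0.745, 1.14, 0.767, 23.7 and 6.75. All 3 had E16 and E17 above E13 and E14 by the rule that picked them, and above E15 as well. Among elements with both late ages below both early ones, the steepest negative IPC slopes were those of NSC_52, NSC_596 and NSC_766. The IPC ratios of NSC_52 were 12.7, 4.24, 0.475, 0.0245 and 0.849. Those of NSC_596 were 53.5, 1.73, 1.65, 1.24 and 0.701, and those of NSC_766 were 7.81, 1.71, 0.354, 0.127 and 0.227. NSC_766 had a slope of -1.22 (SE 0.29; limma adjusted p = 0.80), and NSC_596 had 1 high value, at E13. In NSC the slopes of these 6 elements ran from -0.57 (SE 0.37, NSC_274) to 0.55 (SE 0.43, NSC_154).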

How the data were processed

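Reporter DNA and RNA were measured in 48 libraries of 24 biological samples, with groups taken from the sample titles. The submitters' processing notes name cutadapt (version not given) and the build mm10. How barcodes were counted, and with which tool activity was estimated, is not stated in the material at hand. The authors' deposited file has 30 value columns, 3 per combination, each pooling 2 or 3 samples: a never-negative linear score named statistic, the authors' MAD score and the authors' adjusted p-value. The MAD score was checked against the statistic less the Scrambled median, over 1.4826 times the median absolute deviation (largest difference 4.66e-12). The deposited p-value was recomputed from that score as a one-sided normal p (upper tail), adjusted by Benjamini-Hochberg over all elements in the column (largest difference 6.11e-15). Depth is unknown, so no counting error can be given.

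Ratios are the statistic over the median of Scrambled elements in that column. limma 3.58.1 (lmFit, eBayes; R 4.3.3) was run on log2(ratio + 0.1) over all elements with the values needed, with Benjamini-Hochberg adjustment over all of them, and the pseudocount of 0.1 understates differences of low elements. The models were cell type with age as a factor, a slope per day in each cell type, and the interaction of both. The ages stand in for replicates. The fits were tested on simulated data. Shares have 95% Wilson intervals.

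Elements were named by rule: the 10 highest NSC and 5 highest IPC means, the 5 widest cell-type differences each way, the 5 (NSC) or 3 (IPC) steepest slopes each way, and the 5 lowest means. Since none passed an adjusted p of 0.05, the differences were filled from elements that kept 1 sign at each age, and the slopes from those with E16 and E17 both above or both below E13 and E14. Members, lists and tests were chosen with earlier results of these data known. Alternatives were the pseudocount, the scaling, the MAD score, stricter limits, a filter on a mean ratio of 0.5, a variance trend and leaving out each age.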

Additional observations from a re-analysis of the deposited data

How the results depend on the processing

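No paired analysis was possible because each column pools its replicates and carries no replicate number. Of 225 alternatives to the counts and column medians, 158 left them within 1.5 times or 1 SD over ages and 67 moved them. None of 420 alternatives for named elements changed a sign, and 39 moved a value by more than its error. Those elements were picked as extremes of these same values, so their kept signs are no separate support. The ones named for cell type had 1 sign at every age, so leaving out an age could not reverse them. Of 40 alternatives for the median difference and slopes of descending elements, 7 changed a sign, all of medians near 0. With each age left out, the median NSC slope (0.0414) ran from -0.0236 (without E13) to 0.0848, and the median IPC slope (0.0036) from -0.0178 (without E17; -0.0136 without E16) to 0.0489. The median difference of slopes (-0.0352) ran from -0.099 to 0.0708 (without E13; 0.0052 without E16). Centring on all elements gave a median IPC slope of -0.0047, and a pseudocount of 1 a median difference of slopes of 0.0022. Dividing by the median of non-scrambled elements put the mean of the column medians at 1.05 in NSC and 0.944 in IPC, since those elements lie above the controls. With the MAD score 45 elements were above the NSC limit (4.42%, against 3.41% of all elements). At p under 0.05, 5 were higher in IPC (0.512%, against 1.46%) and 24 higher in NSC (2.46%, against 1.84%). Column medians cannot be compared on that scale. With limits leaving 1% of the controls outside, 10 elements were below in NSC, 29 above in IPC and 18 below in IPC. Elements with all 10 values gave 11 below the NSC limit. Calls at an adjusted p under 0.01 at 3 or more ages were 42 in NSC and 14 in IPC. For that threshold and the 1% limits the shares over all elements were not computed, so these counts cannot be set against the library. Calls at 4 or more ages were 15 and 4. Among all elements, 82 of 11135 were called at 4 NSC ages and 10 at 5, and in IPC 127 and 27 of 11014. With a pseudocount of 1, 20 elements had a positive NSC slope (1.96%, against 1.74% of all elements).

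Leaving out each age in turn, elements below the NSC limit numbered 22 to 31 (31 without E14 and without E16). Calls at 3 of the 4 ages left numbered 30 to 41 in NSC and 12 to 16 in IPC, fewer by construction. With 1 age fewer to satisfy, elements higher in IPC at each age were 35 to 67, those higher in NSC 82 to 101, those with late NSC ages above 173 to 452 and below 162 to 357, and in IPC 176 to 367 and 163 to 374. The shares of all elements under these rules were not computed with an age left out. At p under 0.05, elements higher in IPC were 11 to 32 (1.11 to 3.28%, against 2.97 to 3.62% of all elements). NSC slopes were positive in 14 to 62 (1.36 to 6.08%, against 1.12 to 5.60%). They were negative in 24 to 64 (2.34 to 6.26%, against 1.64 to 5.77%). IPC slopes were positive in 12 to 47 (1.20 to 4.62%, against 1.53 to 4.18%). They were negative in 8 to 54 (0.796 to 5.38%, against 0.902 to 5.79%). The slope was higher in IPC in 21 to 52 and higher in NSC in 5 to 60. The cause was not tested. No alternative gave an adjusted limma p under 0.05 for a descending element. Depth per element is unknown, so what it limits cannot be stated; the median over ages kept 4 of the 10 highest NSC and 2 of the 5 highest IPC elements. The table of shares by label under the MAD score, and the ranking by medians, were added after seeing the data.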
